A study of Mus musculus with 8 samples.

Results

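The 51 genes described here encode the cyclins, kinases, replication factors and mitotic proteins of the cell division cycle. They were chosen by name: a list of 56 cell cycle and DNA replication genes was matched by symbol to the deposited table of 11789 genes, and 51 were found. The other 5 (Birc5, Bub1, Ccnb2, Nusap1 and Ube2c, all of mitosis) have no expression values here and enter only the promoter counts. RNA of whole pancreas was sequenced from 8 mice aged 6 weeks. The wild-type group had 4 mice, labelled only as wild type. The second group had 4 mice of the label Daxxfl/flPdx1-CreTg, which carry floxed alleles of Daxx and a Cre transgene driven by the Pdx1 promoter, and they are called Daxx deleted here. Pdx1-Cre recombines in pancreatic epithelium (endocrine, ductal and acinar cells arise from progenitors that express it), and the vessels, stroma, immune cells and fat of these mice should still carry Daxx. No label names mice with the transgene alone or the floxed alleles alone, and effects of deletion, transgene and floxed alleles cannot be told apart. Each genotype had 2 mice of each sex per the series design, and the labels do not say which library is which.

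Cells that enter the cycle pass a control point in G1, where D-type cyclins with Cdk4 or Cdk6, and then cyclin E with Cdk2, phosphorylate the Rb protein and release E2F transcription factors. E2F factors switch on the genes of DNA replication, and later in the cycle other complexes switch on the genes of mitosis. Mitotic genes are therefore close to silent in resting cells, while replication proteins that also serve DNA repair keep some expression. Pancreatic exocrine cells of young mice divide seldom once grown, and islet cells divide at a declining rate after weaning. Daxx is a chaperone of the histone variant H3.3, which is placed on chromatin outside replication, whereas the CAF-1 complex, encoded in part by Chaf1a and Chaf1b, places histones behind the replication fork.

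Acinar marker genes (6 genes) took 21.0 to 24.4% of normalized counts in 7 libraries and 20.6% in Daxx-deleted replicate 2, so the defining markers of the labelled tissue were present throughout. The 8 libraries held 7705789 to 10517508 reads over the listed genes. Daxx, the targeted gene (chromosome 17, 33909414 to 33915590, GRCm38), did not overlap between the groups, with 39.7, 58.7, 46.7 and 45.2 normalized counts in wild-type replicates 1 to 4 and 26.8, 23.3, 29.2 and 32.5 in Daxx-deleted replicates 1 to 4. The Daxx-deleted values were all lower. The exact two-sided permutation test of the log2 group means gave p = 0.0286, the smallest that 70 relabellings allow, and limma's adjusted p over all genes was 0.9997. Whether transcripts remain after deletion or come from cells without Cre cannot be told apart. Levels are given as normalized counts, the reads of a gene divided by a size factor of the library. Fold changes are Daxx deleted over wild type, taken on log2(value + 1), a scale that understates those of low genes. No label says more than that the samples are separate mice, so p-values measure the spread between these 8 libraries. In bulk tissue, fewer cells of a type and less RNA per cell cannot be told apart.

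In level per kb of exon, the G1 and replication genes stood above the mitotic genes. The median over members was 5.10 normalized counts per kb, against 12.6 over all 11781 listed genes with an annotated length. By role it was 8.54 for the 9 genes of G1 control, 7.75 for the 20 of DNA replication, 1.83 for the 5 of chromatin copying and 2.35 for the 17 of mitosis. Ccnd2, cyclin D2, led with 96.7 counts per kb and a range over libraries of 71.7 to 130.0, followed by its partner kinase gene Cdk4 with 46.7 and a range of 33.7 to 53.3, which does not overlap that of Ccnd2. Next came Fen1, the flap endonuclease of lagging strands, with 24.1, Pcna, the sliding clamp, with 22.9, and Ccnd3, cyclin D3, with 21.0, and these neighbours overlapped in range. Mki67, the gene of the proliferation antigen Ki-67, was the highest mitotic gene with 7.603 and a range of 4.99 to 17.1. The next mitotic gene, Cdc20, had 6.23 and a range of 3.30 to 12.9, which overlapped that of Mki67. Over the wild-type libraries alone their means were 5.95 for Mki67 and 5.74 for Cdc20. Cenpf, a kinetochore protein gene, was the lowest member with 0.541 per kb.

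Promoters of the roles differed in how often they held a CHR element and an E2F site, and the stretches below show examples of both. RefSeq promoter windows (GRCm38.p6, 250 bases before to 50 after a start) were at hand for 46 of the 56 genes on the list, 56 windows in all. They were searched on both strands for E2F sites (TTCCCGC or TTGGCGC), for the CHR element bound by the repressor complex of mitotic genes (TTTGAA or TTTAAA), and for the CCAAT box. TTGG stands in both TTGGCGC and the reverse of CCAAT, so an E2F site after an A also counts as a CCAAT box. A CHR match stood in 16 of 18 mitosis windows (88.9%) and 4 of 21 replication windows (19.0%), against 27.6% of all 32851 windows and 19.1% of the 11928 windows of genes in the table. An E2F match stood in 12 of 21 replication windows (57.1%), 5 of 8 of chromatin copying (62.5%), 3 of 18 of mitosis (16.7%) and 2 of 9 of G1 control (22.2%), against 6.81% of all windows and 11.6% of those of genes in the table. The CHR share was 37.5% (3 of 8) for chromatin copying, above that of all windows, and 22.2% (2 of 9) for G1 control. The CCAAT box stood in 16 of 18 mitosis windows, 13 of 21 replication windows, 5 of 8 of chromatin copying, 3 of 9 of G1 control and 37.4% of all windows. These matches describe letters and do not show binding.

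The 100 bases just before the start are printed for up to 4 measured members a role. They are those whose element (CHR for mitosis, E2F for the other roles) lies wholly within these bases and nearest to the start. Matches that reach into or past the start, as in Cenpf, Lig1 and Rfc4, did not count. E2F, CHR and CCAAT matches are in capitals. Each runs 5′ to 3′ on the strand of the gene. The mitotic genes printed encode the kinase Cdk1, the spindle checkpoint target Cdc20, the spindle motor Kif11 and the topoisomerase Top2a. In each, a CHR element lies 15 to 23 bases before the start, and the stretch also holds a CCAAT box.

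Cdk1 (chr10:69352913-69353012, minus strand): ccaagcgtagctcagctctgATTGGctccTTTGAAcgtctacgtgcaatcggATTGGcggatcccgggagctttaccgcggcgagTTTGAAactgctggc
Cdc20 (chr4:118437344-118437443, minus strand): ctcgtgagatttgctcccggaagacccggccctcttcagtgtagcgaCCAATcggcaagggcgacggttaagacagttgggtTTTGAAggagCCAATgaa
Kif11 (chr19:37376282-37376381, plus strand): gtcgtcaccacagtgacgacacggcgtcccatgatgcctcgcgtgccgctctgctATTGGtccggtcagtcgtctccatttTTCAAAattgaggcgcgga
Top2a (chr11:99024190-99024289, minus strand): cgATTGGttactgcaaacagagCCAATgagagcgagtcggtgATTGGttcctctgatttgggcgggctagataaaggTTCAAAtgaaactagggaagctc

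In the genes of replication (Rpa2, a subunit of the single-strand binding protein, Mcm6, of the replicative helicase, and Rrm1, of ribonucleotide reductase), of chromatin copying (Chaf1a, Uhrf1 and Hells) and of G1 control (Cdk2 and E2f3), an E2F match was the element looked for. Its first base lies 10 to 67 bases before the start, and E2f3 alone among the 12 stretches holds both an E2F and a CHR match.

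Rpa2 (chr4:132768260-132768359, plus strand): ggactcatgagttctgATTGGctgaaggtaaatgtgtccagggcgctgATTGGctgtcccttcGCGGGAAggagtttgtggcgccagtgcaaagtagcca
Mcm6 (chr1:128359706-128359805, minus strand): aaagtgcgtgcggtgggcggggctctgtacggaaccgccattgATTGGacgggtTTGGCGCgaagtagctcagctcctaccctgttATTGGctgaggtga
Rrm1 (chr7:102441595-102441694, plus strand): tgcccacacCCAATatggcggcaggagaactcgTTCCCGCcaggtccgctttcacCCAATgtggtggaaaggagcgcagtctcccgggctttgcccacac
Chaf1a (chr17:56040316-56040415, plus strand): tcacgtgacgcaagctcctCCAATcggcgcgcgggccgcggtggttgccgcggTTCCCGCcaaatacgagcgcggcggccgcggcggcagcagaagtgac
Uhrf1 (chr17:56303237-56303336, plus strand): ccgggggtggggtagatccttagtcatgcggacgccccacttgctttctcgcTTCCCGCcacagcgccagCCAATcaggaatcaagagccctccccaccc
Hells (chr19:38930890-38930989, plus strand): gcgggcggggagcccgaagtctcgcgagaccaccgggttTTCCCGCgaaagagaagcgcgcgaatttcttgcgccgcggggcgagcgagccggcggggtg
Cdk2 (chr10:128705052-128705151, minus strand): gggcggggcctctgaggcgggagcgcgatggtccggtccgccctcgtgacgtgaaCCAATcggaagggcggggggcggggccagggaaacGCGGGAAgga
E2f3 (chr13:29986064-29986163, minus strand): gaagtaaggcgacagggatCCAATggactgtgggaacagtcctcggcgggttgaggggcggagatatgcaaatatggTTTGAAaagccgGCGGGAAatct

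No member was called between the genotypes. Of the 51 genes, 41 had a mean of at least 10 and were tested, and 0 passed an adjusted p under 0.05 in limma, as did 0% of all 10468 tested genes. The smallest adjusted p among members was 0.9997. At an unadjusted p under 0.05 limma found 2 members, Ccnd2 and Cdk6, or 2 of 41, beside 2.88% of all tested genes. On the recovered reads, edgeR's quasi-likelihood test called 0 members and put 5 under an unadjusted 0.05 (Ccnd2, Cdk6, Pole, Mki67 and Top2a), beside 2.86% of all tested genes. DESeq2 called 0 and put 4 there, beside 2.09%. In 0 of the 41 did the 4 values of one genotype all lie above or all below the other, where 0.831% of all tested genes were higher in Daxx-deleted pancreas without overlap and 1.04% lower. The median member's 95% interval reached 0.58 log2 units to each side, 1.49-fold, so smaller changes could not be told from 0 in a typical member. That interval is not adjusted for the number of genes tested, and larger changes could also go uncalled. Daxx, with a log2 fold change of -0.74, had an adjusted limma p of 0.9997.

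Most members still had higher means in Daxx-deleted pancreas, and 1 library carried much of that. Over all 51 members, with no minimum mean, 44 had a difference of mean log2 levels above 0 (86.3%, against 48.8% of all genes). The median over the 51 was 0.23, against -0.01 over all genes. The table itself lists only genes with 5 or more reads in at least 4 libraries. Kif11 had that many only in wild-type replicate 4 and Daxx-deleted replicates 2, 3 and 4. Its listing thus rests in part on Daxx-deleted replicate 2, and its difference, 1.59, was the largest of the 51. Without Daxx-deleted replicate 2, 37 of 51 lay above 0 and the median was 0.10. By role the medians with and without that library were 0.23 and 0.10 for G1 control, 0.19 and 0.05 for replication, 0.44 and 0.26 for chromatin copying and 0.49 and 0.16 for mitosis. Members share libraries and vary together, so these counts are descriptions and were not tested. Of the 41 tested members, 6 (Pole, Cdk1, Ccna2, Bub1b, Cdc20 and Foxm1) passed the minimum mean only through that library. Nearest to the minimum, Bub1b had a mean of 10.04 and Cdk1 of 10.4 on the tested side, and Tpx2 of 9.44 and E2f3 of 8.36 on the other.

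**Figure D1:**
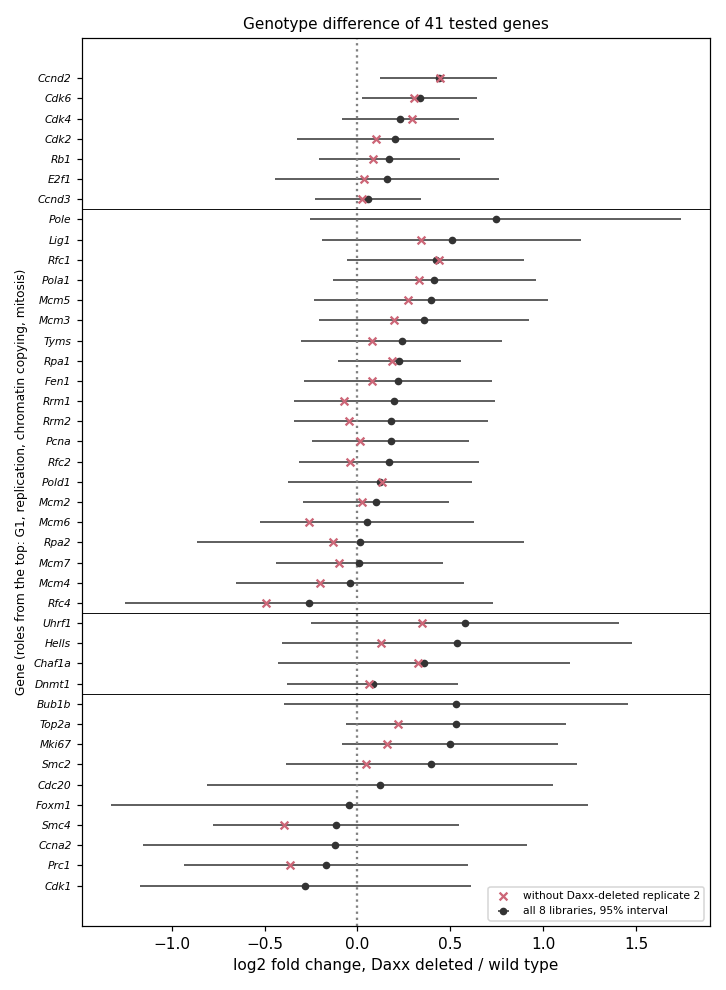
Log2 fold change of each of the 41 tested genes, Daxx deleted over wild type (horizontal axis), with 95% intervals from limma over all 8 libraries as black points and lines, and the value without Daxx-deleted replicate 2 as red crosses. The intervals of Ccnd2 and Cdk6 alone lie above 0, and the 6 genes without a cross fell under the minimum mean when that library was left out.

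Daxx-deleted replicate 2 stood apart in the genes of division. It had the highest value of the 8 libraries in 36 of 51 members (70.6%), against 12.2% of all listed genes, and the lowest in 0. All 17 mitosis members were highest there, as were 14 of 20 of replication, 2 of 5 of chromatin copying and 3 of 9 of G1 control. Of the 17, Kif11 reached the table's minimum of reads only with that library counted. Its value was at least 1.5 times the median of the other 7 libraries in 32 of 51 members (62.7%), against 8.62% of all genes. The median ratio was 2.63 for mitosis, 1.89 for chromatin copying, 1.59 for replication, 1.29 for G1 control and 1.001 for all genes. With TMM scaling the mitosis ratio was 2.66, and with equal library totals 3.16, where the ratio of all genes was 1.19, and all 17 were highest in that library under both. It had 9396845 reads and the highest size factor, 1.20, with 0.767 to 1.13 in the others. This library was singled out after its values were seen, so the counts above are descriptions.

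**Figure D2:**
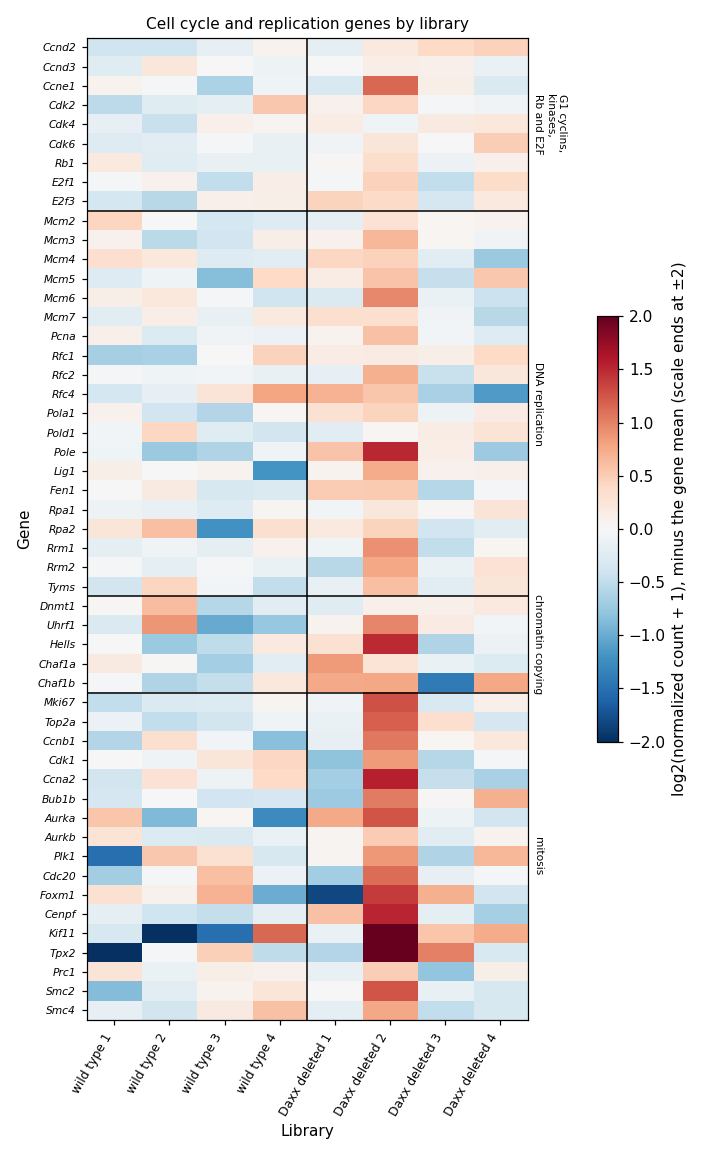
Each cell shows log2(normalized count + 1) of 1 gene in 1 library minus the mean of that gene over the 8 libraries, for the 51 listed members by role (vertical axis) and the 4 wild-type and 4 Daxx-deleted libraries (horizontal axis). The column of Daxx-deleted replicate 2 is red throughout the 17 mitosis genes and in most replication genes, while the other columns are mixed.

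Among the genes of mitosis, Mki67 (chromosome 7, 135689784 to 135716361, GENCODE M21 on GRCm38) had 50.2, 57.4, 58.4 and 73.5 normalized counts in wild-type replicates 1 to 4 and 67.1, 172, 57.3 and 75.6 in Daxx-deleted replicates 1 to 4. Daxx-deleted replicate 2 rests on 207 reads, with an exact Poisson interval of 149.7 to 198 normalized counts for counting error only, and the other 7 libraries, wild type or Daxx deleted, all lay below it and overlapped. Its log2 fold change, 0.50 ± 0.27 (SE), had a 95% interval from -0.08 to 1.08, and it was 0.16 ± 0.19 without that library. Top2a (chromosome 11, 98992943 to 99024189), whose enzyme untangles sister DNA before it separates, had 40.5, 31.3, 34.1 and 41.6 normalized counts in wild-type replicates 1 to 4 and 40.3, 102, 56.2 and 34.6 in Daxx-deleted replicates 1 to 4. Its log2 fold change, 0.53 ± 0.28 (SE), had a 95% interval from -0.06 to 1.12, and 0.22 ± 0.23 without the library. Both genes thus had their highest value in the same Daxx-deleted library. For Mki67 the other 7 libraries ran from 50.2 to 75.6. For Top2a Daxx-deleted replicate 3, with 56.2, also lay above all wild-type values, which were at most 41.6.

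The cyclins and kinases of mitotic entry were also highest in Daxx-deleted replicate 2, at lower counts. Ccna2, cyclin A2, had 7.93, 13.04, 9.74 and 14.2 normalized counts in wild-type replicates 1 to 4 and 6.19, 32.5, 7.29 and 6.30 in Daxx-deleted replicates 1 to 4. Ccnb1, cyclin B1, stood in Daxx-deleted replicate 2 and in the other 7 at 15.8 against 3.54 to 9.13, and its kinase Cdk1 at 18.3 against 5.16 to 13.3. Outside that library the Daxx-deleted values of Ccna2, 6.19 to 7.29, all lay below the wild-type values, 7.93 to 14.2. Its log2 fold change was thus -0.12 ± 0.49 (SE) despite the high library. Foxm1, a transcription factor gene of mitotic genes, stood at 27.5 against 2.06 to 16.7, Plk1, a kinase of mitotic entry, at 13.3 against 1.76 to 11.5, and the Aurora kinase genes Aurka and Aurkb at 15.0 against 1.77 to 10.3 and 7.50 against 3.90 to 6.17. For Aurkb these are 9 reads, with a Poisson interval of 3.43 to 14.2 that takes in all of the other 7.

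The highest ratios of the mitosis members were those of the spindle genes Tpx2 and Kif11. Tpx2, a spindle assembly factor, had 0.881, 6.52, 9.74 and 4.43 normalized counts in wild-type replicates 1 to 4 and 4.13, 29.99, 14.6 and 5.25 in Daxx-deleted replicates 1 to 4, a ratio of 5.71 to the median of the other 7. Kif11, the motor that pushes spindle poles apart, had 3.52, 0, 0.974 and 11.5 normalized counts in wild-type replicates 1 to 4. In Daxx-deleted replicates 1 to 4 it had 4.13, 21.7, 7.29 and 8.40, a ratio of 5.25, with 0 reads in wild-type replicate 2. Every listed gene had 5 or more reads in at least 4 libraries, and Kif11 reached this only with Daxx-deleted replicate 2 counted. Cenpf, of the kinetochore, stood at 22.5 against 4.20 to 11.4, the spindle checkpoint gene Bub1b at 19.99 against 5.16 to 15.7, and the gene it restrains, Cdc20, at 24.2 against 6.17 to 16.6. Prc1, which bundles the microtubules of the dividing midzone, had the smallest ratio of the 17, 1.34, with 16.7 against 6.25 to 14.1. The condensin core genes Smc2 and Smc4, which compact chromosomes, stood at 45.8 against 9.69 to 22.1 and 41.7 against 16.7 to 36.3. Summed over the 17 genes, mitosis members took 211, 223, 254 and 272 in wild-type replicates 1 to 4 and 230.2, 627, 251 and 253 in Daxx-deleted replicates 1 to 4. Without replicate 2 the Daxx-deleted sums were 245 ± 12.6 (SD, n = 3) and lay within the wild-type range, whose mean was 239.9 ± 28.1 (SD, n = 4).

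**Figure D3:**
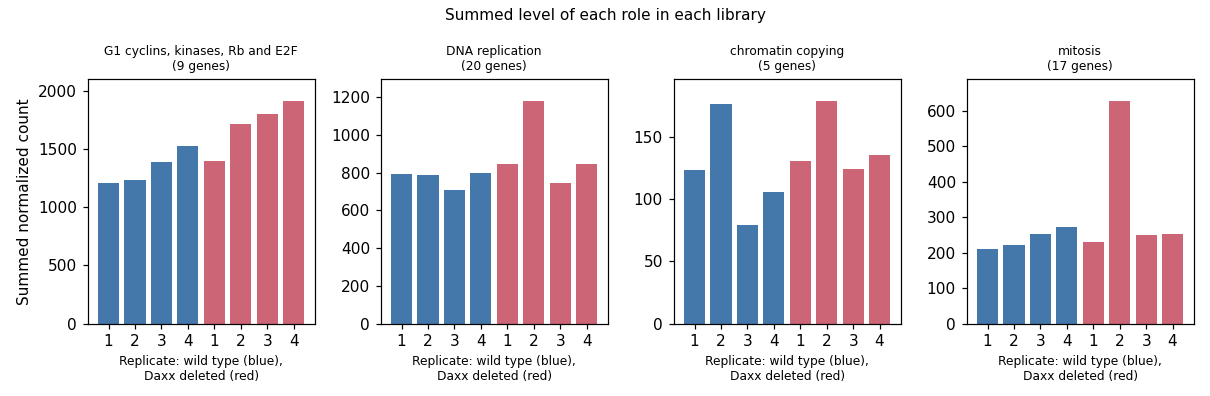
Bars give the summed normalized count of the listed members of each role (vertical axis, from 0, a separate scale per panel) in each library, wild-type replicates 1 to 4 in blue and Daxx-deleted replicates 1 to 4 in red. The mitosis sum of Daxx-deleted replicate 2, 627, stands over 211 to 272 in the other 7, while the G1 sums, most of which is Ccnd2, are highest in Daxx-deleted replicate 4.

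Among the genes of DNA replication, the helicase subunits had unequal ratios. Mcm6 had 51.1, 54.8, 45.8 and 35.4 normalized counts in wild-type replicates 1 to 4 and 38.2, 92.5, 42.7 and 34.6 in Daxx-deleted replicates 1 to 4, so 1 library was high and the other 7 overlapped. Mcm3 stood in Daxx-deleted replicate 2 and in the other 7 at 37.5 against 15.7 to 25.7, Mcm4 at 37.5 against 15.7 to 36.1, Mcm5 at 45.8 against 16.6 to 45.1 and Mcm7 at 70.8 against 37.8 to 70.2, and each ratio lay between 1.33 and 1.63. Mcm2 was highest in wild-type replicate 1, with 113. The 6 subunits form 1 ring, and their log2 fold changes ran from -0.04 (Mcm4) to 0.40 (Mcm5), with SE from 0.18 to 0.29.

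The genes of nucleotide supply followed the mitotic pattern. Rrm1 and Rrm2 encode the large and small subunits of ribonucleotide reductase, and Rrm2 is the subunit made in S phase. Rrm1 had 37.0, 40.4, 37.0 and 45.2 normalized counts in wild-type replicates 1 to 4 and 40.3, 81.6, 30.2 and 44.1 in Daxx-deleted replicates 1 to 4. Rrm2 had 44.1, 39.1, 43.8 and 40.7 normalized counts in wild-type replicates 1 to 4 and 29.9, 76.6, 40.6 and 54.6 in Daxx-deleted replicates 1 to 4. In both, Daxx-deleted replicate 2 was the highest library and the other Daxx-deleted values lay on both sides of the wild-type mean. The ratios were 2.03 and 1.88. Without that library their log2 fold changes went from 0.20 and 0.18 to -0.07 and -0.05. Tyms, thymidylate synthase, stood at 54.1 against 24.8 to 48.3. Over all 20 replication members the summed level was 1177 in Daxx-deleted replicate 2 and 705 to 843 in the other 7.

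At the fork, the clamp gene Pcna stood at 81.6 against 44.3 to 58.2, and Lig1, the ligase that joins lagging strand fragments, at 33.3 against 7.97 to 21.1. Pole, the catalytic subunit of the leading strand polymerase, had 8.81, 5.22, 5.84 and 8.85 normalized counts in wild-type replicates 1 to 4 and 14.5, 28.3, 10.4 and 5.25 in Daxx-deleted replicates 1 to 4, the highest ratio among replication genes (3.21). Its log2 fold change, 0.74 ± 0.47 (SE), had a 95% interval from -0.25 to 1.74, and was the largest of the 41 tested members, but the gene passed the minimum mean only through Daxx-deleted replicate 2. Fen1 was high in Daxx-deleted replicates 1 and 2, with 80.5 and 81.6, against 37.5 to 63.9 in the other 6. Rfc1, the large subunit of the clamp loader, did not follow this order: it had 53.8, 54.8, 86.7 and 119.5 normalized counts in wild-type replicates 1 to 4 and 96.0, 96.6, 93.7 and 114 in Daxx-deleted replicates 1 to 4, low in wild-type replicates 1 and 2 and at a like level in the other 6. Its log2 fold change, 0.42 ± 0.22 (SE), had a 95% interval from -0.05 to 0.90. Rfc4, another loader subunit, had the lowest fold change of the role, -0.26 ± 0.46 (SE), and Pola1, the primase-bound polymerase, had 0.41 ± 0.26. Polymerase subunit Pold1 and the single-strand binding genes Rpa1 and Rpa2 had ratios of 1.06, 1.22 and 1.21, and the loader subunit Rfc2 1.77.

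**Figure D4:**
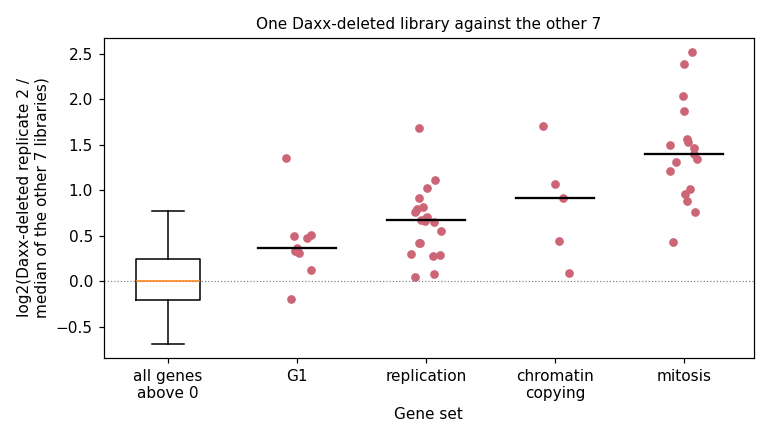
Log2 ratio of Daxx-deleted replicate 2 to the median of the other 7 libraries (vertical axis) for all listed genes with a value above 0 (box, quartiles, with whiskers over the central 90% of genes) and for each member by role (points, black line at the median). The points of mitosis all lie above 0, with a median ratio of 2.63, and those of G1 control lie closest to the box.

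Among the genes that copy chromatin marks behind the fork, Daxx-deleted replicate 2 was highest in Uhrf1 and Hells only. The mean log2 level of the 5 genes, each relative to its own mean, was still highest there (0.72), followed by Daxx-deleted replicate 1 (0.35). The summed level was 178 in Daxx-deleted replicate 2 and 78.9 to 176 in the other libraries. Uhrf1, which reads hemimethylated DNA and brings in the methyltransferase Dnmt1, had 15.0, 35.2, 8.76 and 10.6 normalized counts in wild-type replicates 1 to 4 and 19.6, 37.5, 20.8 and 17.8 in Daxx-deleted replicates 1 to 4, high in wild-type replicate 2 and Daxx-deleted replicate 2. Dnmt1 itself, at 10.9 counts per kb the highest of the role, peaked in wild-type replicate 2 with 120.0, and its log2 fold change was 0.08 ± 0.22 (SE). Hells, a remodeler needed for DNA methylation, stood at 34.2 against 6.52 to 14.5. The CAF-1 subunit gene Chaf1a had 13.2, 11.7, 6.82 and 9.74 normalized counts in wild-type replicates 1 to 4 and 21.7, 14.2, 10.4 and 9.45 in Daxx-deleted replicates 1 to 4, highest in Daxx-deleted replicate 1. Chaf1b had 1 to 10 reads per library and was not tested. For Chaf1a the log2 fold change, 0.36 ± 0.37 (SE), had a 95% interval from -0.43 to 1.15, and thus takes in 0.

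Of the G1 regulators, Ccnd2, Cdk4 and Cdk6 were highest in Daxx-deleted replicate 4, and Ccne1, Rb1 and E2f1 in replicate 2. Cyclin D2 had the smallest p of the members. Ccnd2 (chromosome 6, 127125162 to 127152193) had 677, 674, 795 and 934 normalized counts in wild-type replicates 1 to 4 and 779, 1021, 1174 and 1223 in Daxx-deleted replicates 1 to 4. Of the Daxx-deleted libraries 3 of 4 lay above all wild-type libraries, while Daxx-deleted replicate 1 lay within their range, and the highest library was Daxx-deleted replicate 4. The means were 769.9 ± 123 for wild type and 1049 ± 199 for Daxx deleted (SD, n = 4 each). Its log2 fold change, 0.44 ± 0.15 (SE), had a 95% interval from 0.12 to 0.75. Its unadjusted limma p was 0.00955 and the adjusted p 0.9997, and the exact two-sided permutation test gave p = 0.0857. Without Daxx-deleted replicate 2 it was 0.44 ± 0.16, so the value did not rest on that library.

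Cdk6, a kinase partner of D-type cyclins, had 130.4, 136, 152 and 142 normalized counts in wild-type replicates 1 to 4 and 149, 187, 157 and 222 in Daxx-deleted replicates 1 to 4. All 4 Daxx-deleted values were at or above 149, and 1 wild-type value, 152, overlapped them. Its log2 fold change, 0.33 ± 0.14 (SE), had a 95% interval from 0.03 to 0.64. It had an unadjusted limma p of 0.0357, an adjusted p of 0.9997 and an exact permutation p of 0.0571. Cdk4, the other partner, was the only member lower in Daxx-deleted replicate 2 than in the median of the other 7, with 134, 109.6, 162 and 156 normalized counts in wild-type replicates 1 to 4 and 167, 142, 171 and 173 in Daxx-deleted replicates 1 to 4. Without that library the 3 remaining Daxx-deleted values of Cdk4 all lay above the wild-type values, by little. Ccnd3 had a log2 fold change of 0.06 ± 0.13 (SE), Rb1, the brake these kinases act on, 0.17 ± 0.18, and E2f1 0.16 ± 0.28. Ccne1, cyclin E1, was the only G1 member with a ratio of at least 1.5, with 15.8 against 3.90 to 7.29, and its kinase Cdk2 was highest in wild-type replicate 4 with 45.2. E2f3 stayed between 5.22 and 11.4. Summed over the 9 genes, of which Ccnd2 was the most abundant, the normalized counts were 1208, 1238, 1392 and 1531 in wild-type replicates 1 to 4 and 1402, 1712, 1804 and 1911 in Daxx-deleted replicates 1 to 4, and the groups overlapped. With each gene weighted equally, as the mean log2 level relative to the mean of the gene, the highest G1 library was Daxx-deleted replicate 2 (0.36), followed by replicate 4 (0.15). The same mean was 1.19 in replicate 2 for mitosis.

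The rest of the pathway, 172 further genes in 9 lists, had 137 in the table and 93 tested, of which limma, edgeR and DESeq2 each called 0. Limma put 7, edgeR 7 and DESeq2 6 under an unadjusted 0.05, the first beside 2.88% of all tested genes. Of the 23 listed genes of kinetochore, spindle and cytokinesis, 18 were highest in Daxx-deleted replicate 2, with a median ratio of 2.07. The medians were 1.20 for the 16 genes of origin licensing and firing, 1.22 for 22 other fork and nucleotide genes, 1.16 for 15 of condensin and cohesin, 1.13 for 12 other cyclins, kinases and phosphatases and 1.08 for 13 checkpoint genes. Those of the anaphase-promoting complex (17 genes), pocket and E2F proteins (14) and CDK inhibitors (5) were 1.04, 0.992 and 0.998.

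Values of the pathway genes with the smallest p of their lists follow, each with log2 fold change ± SE. Cdt1, which loads the helicase onto origins, had 14.1, 13.04, 5.84 and 13.3 normalized counts in wild-type replicates 1 to 4 and 24.8, 19.2, 16.7 and 19.9 in Daxx-deleted replicates 1 to 4, with no overlap, and 0.80 ± 0.33. Ncapg2, of condensin II, had 13.2, 13.04, 11.7 and 12.4 normalized counts in wild-type replicates 1 to 4 and 21.7, 45.0, 13.5 and 21.0 in Daxx-deleted replicates 1 to 4, also with no overlap and with 1 high library, and 0.82 ± 0.34. Racgap1, of the cytokinetic midzone, had 7.93, 5.22, 8.76 and 7.08 normalized counts in wild-type replicates 1 to 4 and 9.29, 20.8, 15.6 and 12.6 in Daxx-deleted replicates 1 to 4, with no overlap, and 0.88 ± 0.38, but it passed the minimum mean only through Daxx-deleted replicate 2. Cdc7, the kinase that fires origins, was lower without overlap, with 15.0, 14.3, 22.4 and 15.1 normalized counts in wild-type replicates 1 to 4 and 10.3, 14.2, 11.5 and 10.499 in Daxx-deleted replicates 1 to 4, and -0.48 ± 0.30. Cdc26, of the anaphase-promoting complex, had 0.66 ± 0.22 and overlapped, as did Anapc13 with 0.40 ± 0.17, Ncapd2 of condensin I with 0.61 ± 0.23 and Pold3, a polymerase delta subunit, with -0.53 ± 0.22. Of the CDK inhibitors, Cdkn1a had -0.21 ± 0.29, Cdkn1b 0.05 ± 0.16 and Cdkn1c 0.62 ± 0.43. All had adjusted p of 0.9997 in limma, and the lack of overlap partly follows from picking small p-values.

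Like the mitotic genes, the adipocyte and myeloid marker sums, Jchain and Tcf7 were highest in Daxx-deleted replicate 2. Sums of acinar, endothelial and gut epithelium markers were lowest in that library. Taken singly, Cdh5 alone of the endothelial markers and Vil1 alone of the gut markers, with 3 reads, were lowest there. Its ductal, islet, fibroblast and erythroid sums lay within the range of the other 7. The 5 listed adipocyte markers of 7 (Lep and Retn are not analysed here) summed to 589 there and to 69.3 to 327 in the other 7, and all 5 were highest there. The wild-type sums spanned 105 to 327, and the Daxx-deleted sums 69.3 to 589, so the groups overlapped. For 9 of 10 macrophage and myeloid markers (without Itgam) the sums were 782 and 344 to 657, with 6 of 9 highest there. Of 7 B and plasma cell markers only Jchain was measured here, with 18.5, 19.6, 2.92 and 0 normalized counts in wild-type replicates 1 to 4 and 8.26, 69.97, 18.7 and 2.10 in Daxx-deleted replicates 1 to 4. Of 7 T cell markers only Tcf7 was measured here, with 34.2 in Daxx-deleted replicate 2 and 7.23 to 24.0 in the others, and the antigen receptor genes of both lineages are not analysed here. Ptprc, the pan-leukocyte gene, had 36.1, 24.8, 19.5 and 6.20 normalized counts in wild-type replicates 1 to 4 and 21.7, 49.1, 27.1 and 10.499 in Daxx-deleted replicates 1 to 4.

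**Figure D5:**
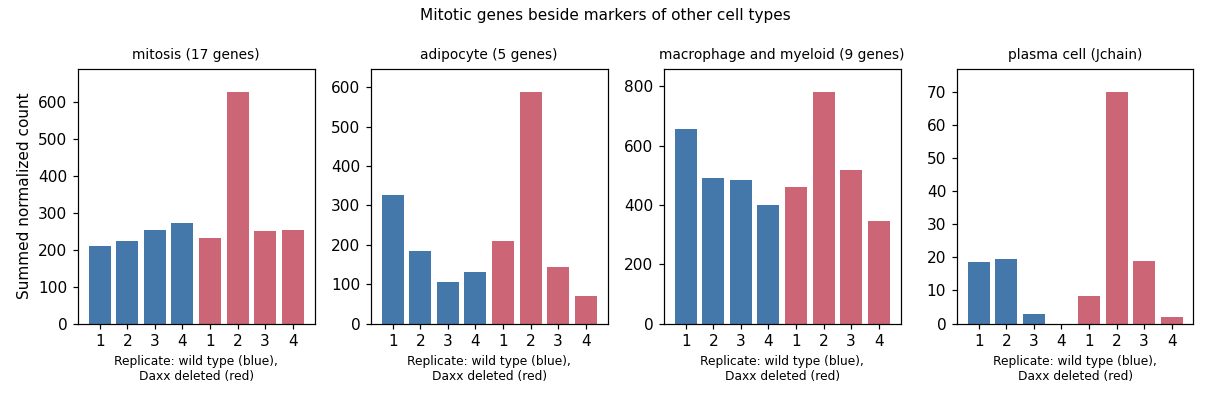
Bars give summed normalized counts (vertical axis, from 0, a separate scale per panel) of the 17 mitosis members, 5 adipocyte markers, 9 macrophage and myeloid markers and Jchain in each library, wild type in blue and Daxx deleted in red. All 4 panels are highest in Daxx-deleted replicate 2, while wild-type replicate 1 is second in the adipocyte and myeloid panels and lowest in mitosis.

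Wild-type replicate 1 had the second highest adipocyte and myeloid sums, 327 and 657, and the lowest mitosis sum, 211. In other lineages Daxx-deleted replicate 2 had 4585 over 7 fibroblast markers (others 3113 to 5512), 522 over 6 endothelial markers (548 to 637), 1069.6 over 6 ductal markers (1025 to 1278), 374 over 5 erythroid genes (257 to 567) and 85.0 over 3 of 6 gut epithelium markers (87.4 to 143). Over 7 islet markers it had 1788, near the lowest of the others (1633 to 7643). Daxx-deleted replicate 1, with the lowest islet sum, had a mitosis sum of 230.2. The mean log2 level of 4 Y-linked genes was 0 to 0.44 in wild-type replicates 1 and 2 and Daxx-deleted replicates 1 and 2, and 5.31 to 6.23 in the other 4. In the first 4 of these the mitosis sums were 211, 223, 230.2 and 627. With that level added to the model, limma called 0 members and put 3 under an unadjusted 0.05. The part that other cells or sex have in the mitotic level of Daxx-deleted replicate 2 was not tested.

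Few tested genes ran with the mitotic members across animals. After subtraction of genotype means, each tested gene was compared over the 8 libraries with the mean log2 level of the 10 tested mitosis members. Pearson's r was the measure, as a description that 1 library dominates. Of these 10 members, Cdk1, Ccna2, Bub1b, Cdc20 and Foxm1 passed the minimum mean only through Daxx-deleted replicate 2, so the mean level is partly chosen by that library. This r was above 0.8 for 95 of 10468 tested genes (0.908%). The 95 include 7 of the 10 mitosis members, which form the mean, and 3 of 20 replication members (Rfc2, Rrm1 and Rrm2). No such r was found in the 7 G1 members, the 4 of chromatin copying or the 93 tested pathway genes. Of the 23 listed genes of kinetochore, spindle and cytokinesis only 5 were tested, so r was not taken for most of that list. Without Daxx-deleted replicate 2 these values changed: r of Rrm1 was 0.02 in place of 0.86, of Rfc2 0.15 in place of 0.81, of Rrm2 0.70 in place of 0.88 and of Ccnd2 0.91 in place of 0.26. The median over replication members went from 0.34 to -0.31, and that over mitosis members, which form the mean, from 0.83 to 0.40. The 10 genes most like them over all 8 libraries outside the list had r from 0.91 to 0.97. They were Mgme1, a mitochondrial DNA exonuclease gene, Slc17a5, 1700037H04Rik, Fam98b, Mrpl13, Zmat2, Aplp2, Hars, Jcad and Hist1h2bn, a histone H2B gene, and none is in the pathway lists. Hist1h2bn stood at 22.5 in Daxx-deleted replicate 2 and 7.23 to 12.5 in the other 7, and it passed the minimum mean only through that library. Mgme1 had 43.3 and 23.7 to 33.1.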

How the data were processed

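RNA of whole pancreas from 4 wild-type and 4 Daxx-deleted mice was sequenced from stranded total RNA libraries, per the labels' protocols. The deposited values are a signal: per gene, the authors' read count over the size factor of the library (median-of-ratios factors recomputed from the recovered reads were equal to it, within 1.44e-15). STAR 2.6.0b, DESeq2 and build GRCm38 were used, per the submitters' processing notes. Read counter, strand setting and gene filter: not given in the sources used here. Exons of 12 of the 51 members overlap those of a gene in the table on the other strand (Ccnd3, Cdk4, Rb1, Mcm7, Rfc2, Rfc4, Lig1, Fen1, Chaf1a, Ccna2, Cdc20 and Prc1), so their reads are uncertain if strand was not used. Dividing by 1 step per library gave whole reads for 100% of values (tolerance 0.001), 7705789 to 10517508 per library. No gene in the table had fewer than 4 libraries with 5 or more reads.

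Genes with a mean of at least 10 over the 8 libraries (10468 of 11789) were tested on log2(value + 1) with limma 3.58.1 (R 4.3.3, trend option, genotype as the only term), two-sided, with Benjamini-Hochberg adjustment over all of them, and called under 0.05. edgeR 4.0.16 and DESeq2 1.42.0 on recovered reads were alternatives. The fit was tested on simulated data. Positions and merged exon lengths are from GENCODE M21 (GRCm38), matched for 51 of 51 members. Members, role lists, pathway lists, markers and motifs were chosen with earlier results of these data known. Named genes were Daxx, any member, up to 3 genes of the smallest p per pathway list and the 10 genes most like the mitosis members.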

Additional observations from a re-analysis of the deposited data

Results flagged for a closer look

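For Daxx and each of the 51 members, Dixon's gap test asked in both genotypes whether the highest or lowest of 4 libraries stood far from its neighbour. It did in 11 of 104 groups, and chance alone would give 5.20. Members vary together, so these are not separate events. In 7 the library was Daxx-deleted replicate 2, above the other 3 Daxx-deleted libraries: Mcm6 at 92.5 against 34.6 to 42.7, Lig1 at 33.3 against 20.6 to 21.0, Uhrf1 at 37.5 against 17.8 to 20.8, Mki67 at 172 against 57.3 to 75.6, Ccna2 at 32.5 against 6.19 to 7.29, Smc2 at 45.8 against 14.7 to 18.6, and Smc4 at 41.7 against 16.7 to 20.6 normalized counts. These are 3 genes of replication or chromatin copying with a role in S phase (Mcm6, Lig1, Uhrf1) and 4 of mitosis (Mki67, Ccna2, Smc2, Smc4). The other 4 were Rfc1 at 114 against 93.7 to 96.6 in Daxx-deleted replicate 4, Lig1 at 7.97 against 19.6 to 21.1 in wild-type replicate 4, Chaf1b at 1.04 against 8.26 to 8.40 in Daxx-deleted replicate 3, Bub1b at 9.13 against 6.82 to 7.08 in wild-type replicate 2. For Chaf1b the low value is 1 read. The cause was not tested.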

How the results depend on the processing

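No member was called in any of 19 alternative settings. These were pseudocounts of 0.5 and 8, TMM, equal library totals, no minimum mean, a minimum mean of 50, robust moderation and the Y-linked covariate. Further settings were edgeR, DESeq2, an adjusted p under 0.10 and each library left out in turn. Over all genes the count was 0, and 1 (Bglap3, no member) with DESeq2, the Y-linked covariate, equal library totals or robust moderation. It was 0 to 1 with a library left out. The number of members without overlap was 0, but 2 with equal library totals (Cdk6 and Rpa1) and 1 to 3 with a library left out, as fewer libraries overlap less often by construction. Over all tested genes the share was 1.87% with 8 libraries, 3.26% with equal totals (members 4.76%) and 3.74 to 5.34% with a library left out (members 2.44 to 7.32%). Under equal totals the median gene shifted to 0.11. The median log2 fold change of tested members, 0.20, ran from 0.16 to 0.32 over these settings and from 0.08 (without Daxx-deleted replicate 2) to 0.26 with a library left out. Of 41 tested members 25 kept their sign in every setting they were tested in, Ccnd2, Cdk6, Cdk4, Mki67 and Top2a among them. Of these, 3 (Pole, Cdk1 and Bub1b) could not be tested without Daxx-deleted replicate 2. Ccnd2 ran from 0.36 to 0.57 and Mki67 from 0.16 to 0.68. Low counts limit the mitotic genes, 7 of 17 of which were not tested. No paired analysis was possible because the labels give no replicate numbers and the numbers used here follow accession order.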
